A study of Caenorhabditis elegans with 18 samples.

Results

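The nuclear hormone receptor genes of Caenorhabditis elegans were examined as a family in whole early adults of 3 genotypes, each grown with a solvent or with an inhibitor of mitochondrial respiration. The family was taken as every gene of the deposited count table whose WormBase symbol is nhr- followed by a number, apart from nhr-10, nhr-23, nhr-25, nhr-57 and nhr-68. This gave 242 genes of 23368, all annotated as protein coding. The family was chosen by name, with earlier results of these data known. The 6 groups held 3 RNA-seq libraries each, 18 in all. They were the wild-type strain N2 (WT), the nhr-45(tm1307) mutant and the nhr-178(gk1005) mutant, each with DMSO or with 0.3 µM antimycin A, which blocks respiratory complex III. All animals had passed an 18 hour arrest as first-stage larvae and then fed on Escherichia coli HT115 until early adulthood, with at least 1000 animals collected for a sample. Each mutant was represented by a single allele, and both mutant receptors belong to the family described. The samples are described as biological triplicates but no separate cultures are named, so each p-value reflects only how these samples varied, which may be partly technical.

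Nuclear hormone receptors are transcription factors that carry a zinc-finger DNA-binding domain and, in most members, a ligand-binding domain, so that a small lipophilic molecule can set the activity of the protein. Nematodes have many more such genes than vertebrates, and most of the additional ones are thought to descend from a receptor related to vertebrate HNF4. A few worm receptors are known from genetics: NHR-49 in fatty acid metabolism, NHR-8 in cholesterol handling and resistance to toxins, and NHR-45 in the induction of detoxification genes under mitochondrial stress. For most of the family no ligand or function is established, and the genes below without a stated role are of that kind or have roles that are less certain.

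The table held total counts of 1772887 to 9488037 per library. The shallowest libraries were replicate 2 of nhr-45 in antimycin and replicate 1 of WT in antimycin, with 3143437. Levels are given as CPM, the count of a gene relative to the scaled total of its library. A gene was called changed when its Benjamini-Hochberg adjusted p from edgeR's quasi-likelihood test on all 10981 tested genes was below 0.05, two-sided. Every log2 fold change is given with its standard error (SE). Receptor genes took 0.0949% to 0.112% of all counts in 15 libraries. The 3 libraries of nhr-45 in antimycin stood above these, at 0.128% to 0.133%. The same 3 libraries stood apart in other tissue markers. Summed over 9 moulting and hypodermal genes, they had 757 to 1460 CPM against 24.5 to 96.3 in all the others, and over 11 sperm genes 167 to 224 CPM against 0 to 34. In nhr-45, the 6 yolk genes summed to 2300 to 3150 CPM in antimycin and 5980 to 9300 in DMSO. The 9 oocyte and eggshell genes had 5830 to 6400 CPM in antimycin and 9270 to 10000 in DMSO. The 8 intestinal genes had 2780 to 3180 and 1970 to 2170, and the 4 adult cuticle genes 246 to 281 and 195 to 224. Muscle and neuronal sums overlapped. All 9 moulting genes and 10 of the 11 sperm genes had a count in nhr-45 with antimycin. In these whole animals, fewer cells of a type and less RNA per cell cannot be told apart, and the part of these markers in any result on nhr-45 with antimycin was not tested.

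Much of the family was close to undetected at this stage. Of the 242 receptor genes, 211 had at least 1 count and 31 had none. After the filter on low counts, 99 could be tested, or 40.9%, against 47% of all genes. The 47% is over the whole count table, which also holds non-coding RNA genes, so the shares are not of like genes. Tested receptor genes had a median level of 3.72 CPM, whereas the median tested gene had 13.8 CPM. Of the 99, 58 lay below 5 CPM, 28 between 5 and 20 CPM, and 13 above 20 CPM. A gene that passed the filter through a group in which it was high had to differ between groups, so counts over these 99 genes are descriptions. The 143 untested genes had a mean of at most 0.96 CPM. Among them, nhr-154 had 30 counts over the 3 libraries of nhr-178 in antimycin and nhr-128 had 26 over those of nhr-178 in DMSO, and no other untested gene reached as many in a group.

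The tested share is given by chromosome. The shares of all genes again include non-coding RNA genes, whereas all the receptor genes are protein coding. Chromosome V carried 153 of the 242 receptor genes, and 47 of these were tested, or 30.7%, against 39.2% of all genes on that chromosome. On chromosome X, 15 of 21 were tested, or 71.4%, where all genes gave 46.2%. On chromosome IV, 21 of 30 were tested, or 70%, against 35.9% of all genes. Genes beside another receptor gene in the annotation were counted apart. There were 117 such genes in 39 runs, of which 31 were tested, or 26.5%, while 68 of the other 125 were tested, or 54.4%. These shares were not tested for a difference, since neighbouring genes share sequence and position. The longest run held 8 genes at V:3852298-3886204 (WBcel235), nhr-186, nhr-188, nhr-189, nhr-187, nhr-157, nhr-158, nhr-159 and nhr-124. None of these was tested, 2 had no count at all, and the best covered had 20 counts over all 18 libraries. Runs were not always silent: at V:6980587-7000651, 4 of 7 neighbours were tested. Reads from near-identical neighbours could have been split in the counting, so low counts in a run are uncertain.

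**Figure D1:**
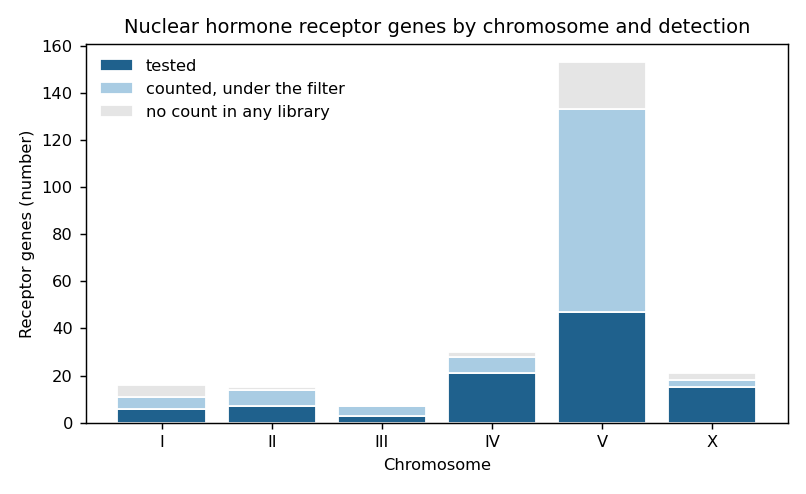
Number of receptor genes on each chromosome, with bar segments for genes tested, genes with counts under the filter and genes with no count. Chromosome V holds 153 of the 242 genes and 47 of the 99 tested ones.

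Levels between genes were ordered as CPM per kilobase of coding sequence, averaged over the 6 groups. The receptor NHR-49, which controls fatty acid oxidation and desaturation genes, was the most abundant at 78.9. It was followed by nhr-46 at 60.8, nhr-69 at 44.2, nhr-274 at 40.2, nhr-14 at 40.0 and nhr-1 at 39.8. Below these came nhr-97 at 37.4, nhr-86 at 35.2, nhr-31 at 26.6 and nhr-66 at 24.8. The 5 that completed the first 15 were nhr-40 at 19.7, nhr-138 at 18.4, nhr-88 at 12.6, nhr-20 at 12.3 and nhr-17 at 10.1. The neighbours nhr-274, nhr-14 and nhr-1 lie closer to each other than the spread of their libraries. Ordered by CPM without the length, 14 of these 15 stayed among the first 15. Of the 15, nhr-66 overlaps serp-1.2, which had 376 to 419 CPM by group, and the use of strand in the counting is not given in the sources used here.

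Some of the most abundant receptors hardly varied by group. For nhr-49 the group means were 115 ± 14.3 CPM in WT with DMSO, 115 ± 24.3 in WT with antimycin, 134 ± 24.3 in nhr-45 with DMSO and 123 ± 15.5 in nhr-45 with antimycin (SD, n = 3). In nhr-178 they were 118 ± 8.21 CPM with DMSO and 106.4 ± 19.8 with antimycin. All 6 groups overlapped, and nhr-49 was called in no comparison. The flattest of the 15 was nhr-274, whose highest group mean was 1.109 times its lowest, from 47.8 ± 4.96 to 53.0 ± 4.93 CPM. Over the tested family the highest group mean was a median of 2.01 times the lowest.

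**Figure D2:**
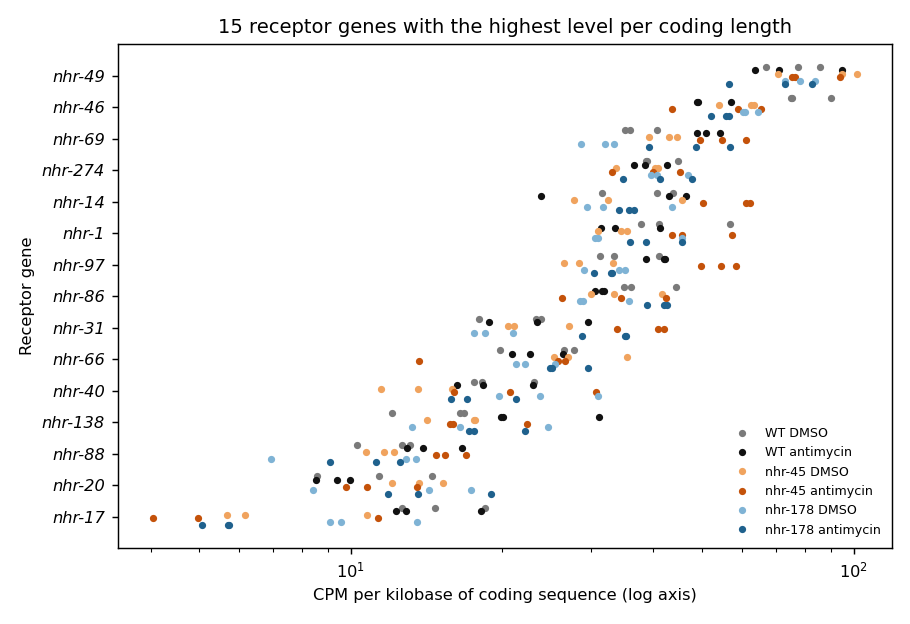
Level of the 15 most abundant receptor genes in each of the 18 libraries, as CPM per kilobase of coding sequence on a log axis, coloured by group. The points of nhr-49 and nhr-274 from the 6 groups lie on top of each other, while nhr-17 is spread by genotype.

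The counts of the mutated receptors do not check the genotype labels. nhr-45 had 5.88 ± 1.20 CPM in WT with DMSO, 7.19 ± 0.799 in WT with antimycin, 4.29 ± 1.34 in nhr-45 with DMSO and 6.31 ± 1.38 in nhr-45 with antimycin (SD, n = 3). In the nhr-178 mutant it had 7.01 ± 0.990 CPM with DMSO and 6.19 ± 0.712 with antimycin. It was called in no comparison. Its libraries of the nhr-45 mutant in DMSO, at 3.33, 5.82 and 3.73 CPM, overlapped those of WT in DMSO, at 4.51, 6.42 and 6.71. A deletion can leave part of a transcript, and where the counted reads fall within either gene was not analysed here. nhr-178 was too low to test, with 6, 15, 7 and 5 counts over WT in DMSO, WT in antimycin, nhr-45 in DMSO and nhr-45 in antimycin. In its own mutant it had 2 counts with DMSO, under the floor of 3 counts over a group, and 22 with antimycin.

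In WT animals, antimycin raised nhr-120 and nhr-142 and lowered nhr-46. These 3 of 99 tested receptor genes, or 3.03%, compare with 3.01% of all tested genes called in the same comparison, 2.07% higher and 0.938% lower. The median log2 fold change was 0.136 over the receptors and 0.00898 over all tested genes. The treated and control libraries did not overlap in 15 receptors that were higher and 6 that were lower, where 10.7% and 9.39% of all tested genes did so. nhr-46 (IV:5747363-5757862) had 130, 130 and 156 CPM with DMSO and 84.9, 84.2 and 98.4 with antimycin. All treated libraries lay below all controls, and the log2 fold change was -0.64 ± 0.14 (adjusted p = 0.0108). nhr-120 (X:6636561-6640620) had 9.37, 15.1 and 10.6 CPM with DMSO and 24.1, 21.9 and 21 with antimycin, with no overlap. Its log2 fold change was 0.93 ± 0.24 (adjusted p = 0.0326). nhr-142 (V:5785957-5790553) had 5 counts over the DMSO libraries and 35 over the antimycin ones, an 11.4-fold ratio with a 95% counting interval of 4.45 to 37.3. It stood at 0.237, 0.131 and 0.216 CPM with DMSO and 1.95, 2.40 and 2.27 with antimycin (adjusted p = 0.0123). nhr-142 passed the low-count filter through antimycin groups of WT and nhr-178, where it was high, so its calls are descriptions. Tissue markers differed without overlap between the same groups, and their part in the result was not tested. From DMSO to antimycin the 5 muscle genes summed to 4590 to 5090 and then 7080 to 8500 CPM, and the 6 yolk genes to 6770 to 8750 and then 4700 to 5070. The 9 moulting genes went from 33 to 47.5 up to 56.4 to 96.3 CPM, and the 11 sperm genes, of which 10 had a count, from 3.93 to 9.97 up to 12.4 to 17.5. The 8 intestinal genes went from 1790 to 1970 up to 2070 to 2520 CPM. The 7 neuronal genes went from 462 to 517 up to 522 to 549. The 9 oocyte and eggshell genes went from 9420 to 12400 down to 8100 to 8770 CPM. The 4 adult cuticle genes went from 150 to 179 up to 205 to 219, of which 2 and 3 had a count. None of the 3 calls was kept under every left-out library, and without replicate 3 of WT in DMSO there were 0 calls. The call on nhr-46 was also lost without replicate 2 of WT in antimycin (log2 -0.59, adjusted p = 0.0658). The adjusted p of nhr-120 reached 0.149 without replicate 1 of WT in DMSO, and that of nhr-142 reached 0.0734 without replicate 2 of it. The call on nhr-120 was kept with only 1 of the 6 libraries left out, and that on nhr-142 with 2 of 6.

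In nhr-45 mutants, antimycin raised 16 receptor genes and lowered 1, with nhr-19, nhr-7, nhr-21, nhr-91 and nhr-120 rising the most. That is 17.2% of the 99 tested receptors, where 23.5% of all tested genes were called. The background by direction was 15.2% higher and 8.33% lower, so the share of receptors called higher was near that of all genes. Most tested receptors nevertheless had positive values. Their median log2 fold change was 0.52 against 0.00312 over all tested genes, and 75 of 99 had a positive value. In 31 receptors every antimycin library lay above every DMSO library, while 21.1% of all tested genes did so, and in 3 every one lay below, against 14.9%. Among receptors below 5 CPM, 3 of 58 were called, or 5.17%, against 21.2% of all genes at that level. Between 5 and 20 CPM, 9 of 28 were called, or 32.1%, against 21.8%. Among those above 20 CPM, 5 of 13 were called, or 38.5%, against 26.3% of all genes.

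**Figure D3:**
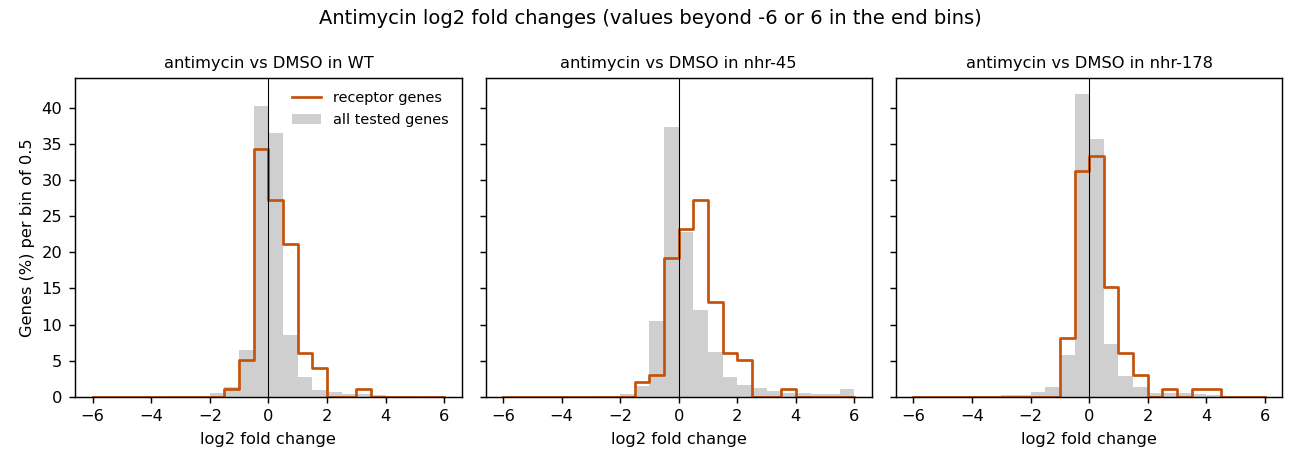
Share of genes in each bin of log2 fold change for antimycin against DMSO, with grey bars for all 10981 tested genes and a line for the 99 tested receptor genes, in WT, nhr-45 and nhr-178 animals. In nhr-45 the line sits to the right of the bars, with medians of 0.52 and 0.00312.

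In nhr-45 with antimycin, the called receptor with the largest log2 rise was nhr-19 (II:9598180-9605526). It went from 3.73, 4.62 and 3.96 CPM with DMSO to 24.5, 15.1 and 19.6 with antimycin, a log2 fold change of 2.29 ± 0.26 (adjusted p = 1.3e-07). In WT it had 8.42, 9.17 and 10.5 CPM with DMSO and 10.4, 9.95 and 6.68 with antimycin, and the libraries overlapped. So the nhr-45 libraries lay below WT in DMSO and above WT in antimycin. The overlapping gene mrpl-53 had 12.8 CPM with DMSO and 14.4 with antimycin in nhr-45, a log2 fold change of 0.112 with adjusted p = 0.871. nhr-21 (II:7339229-7349133) rose from 2.26, 4.62 and 3.03 CPM to 15.8, 8.60 and 14.4, a log2 fold change of 2.02 ± 0.32 (adjusted p = 3.47e-05). nhr-120 rose from 6.53, 4.17 and 6.29 CPM to 28.8, 17.2 and 17.8, or by 1.95 ± 0.27 (adjusted p = 3.94e-06). nhr-91 (X:15309369-15314899), the worm relative of the vertebrate receptor GCNF, went from 5.86, 5.37 and 4.19 CPM to 18.1, 10.2 and 31.2. The treated libraries of nhr-91 were widely spread, yet all lay above the controls (log2 1.98 ± 0.35, adjusted p = 0.000135). Unlike nhr-19, both nhr-21 and nhr-91 also had separate groups in WT. There nhr-21 had 4.87, 7.47 and 4.76 CPM with DMSO and 12.4, 7.92 and 10.5 with antimycin. nhr-91 had 8.54, 4.85 and 4.11 CPM and then 10.1, 10.5 and 12.9 in WT. Neither was called in WT or in the interaction with nhr-45.

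At lower levels, nhr-7 rose from 0.703 ± 0.0401 to 3.15 ± 0.797 CPM (adjusted p = 0.00746), nhr-162 from 0.771 ± 0.661 to 2.91 ± 0.740 (adjusted p = 0.0476) and nhr-5 from 2.22 ± 0.780 to 5.69 ± 1.59 (adjusted p = 0.0211). Among moderate ones, nhr-3 rose from 4.21 ± 0.100 to 9.06 ± 2.52 CPM and nhr-79 from 3.67 ± 0.688 to 8.44 ± 1.08 (SD, n = 3; edgeR adjusted p = 0.00845 and 0.0101). The abundant receptors that rose did so by less. nhr-97 went from 38.7 ± 4.59 to 71.4 ± 5.78 CPM (log2 0.87 ± 0.16, adjusted p = 0.000166). nhr-31, needed for growth of the excretory cell tubule, went from 40.1 ± 6.42 to 68 ± 7.69 CPM (adjusted p = 0.0025). nhr-14, linked to iron uptake and immunity, went from 46.1 ± 12.1 to 75.5 ± 8.66 CPM (adjusted p = 0.0159). The smallest called rises were those of nhr-35, nhr-40, a receptor of muscle development, and nhr-1, with log2 fold changes of 0.71, 0.66 and 0.55. The receptor of early embryos, nhr-2, was the only one called lower, from 9.32, 8.95 and 8.62 CPM to 2.96, 8.60 and 3.77 (log2 -1.04 ± 0.34, adjusted p = 0.0274). Its replicate 2 with antimycin, the shallowest library of the series, lay just under the controls. All 9 oocyte and eggshell markers were called lower in the same comparison, where 8.33% of all tested genes were. Their part in the call on nhr-2 was not tested.

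Of these 17 calls, 8 were kept with each library left out and in the other settings: nhr-19, nhr-7, nhr-21, nhr-91, nhr-120, nhr-79, nhr-97 and nhr-31. Of these, nhr-7 was not tested with a filter at 5 CPM. A fit on the compared groups alone called 13 receptors and lost nhr-2, nhr-40, nhr-35, nhr-8 and nhr-162. Without replicate 2 of nhr-45 in DMSO 10 receptors were called, and without replicate 1 of nhr-45 in antimycin 11. The other 9 calls were lost without at least 1 library. For nhr-35, nhr-1, nhr-2 and nhr-3 the highest adjusted p came without replicate 1 of nhr-45 in antimycin, at 0.3, 0.192, 0.199 and 0.0722. For nhr-14 and nhr-162 it came without replicate 2 of nhr-45 in DMSO, at 0.0909 and 0.189. For nhr-5 it was 0.114 without replicate 1 of nhr-45 in DMSO, and for nhr-40 it was 0.18 without replicate 2 of nhr-45 in antimycin. The value for nhr-8, the receptor of cholesterol handling and toxin resistance, was 0.111 without replicate 3 of nhr-45 in DMSO.

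nhr-8 was called higher with antimycin in both mutants and was not called in WT. In nhr-45 it went from 8.39, 6.11 and 3.03 CPM with DMSO to 11.7, 14 and 10.1 with antimycin (log2 0.95 ± 0.30, adjusted p = 0.023). In nhr-178 it went from 6.08, 3.03 and 4.82 to 9.09, 11.9 and 10.7 CPM (log2 1.22 ± 0.31, adjusted p = 0.0228), and in WT from 4.75, 4.85 and 5.95 to 7.81, 11.1 and 9.95. The WT groups did not overlap either, but the gene did not pass the test there (log2 0.90 ± 0.30, adjusted p = 0.111). Its interaction with either mutation was 0.05 ± 0.43 for nhr-45 and 0.31 ± 0.43 for nhr-178 (edgeR adjusted p = 0.975 and 0.931). The gene F33D4.6 overlaps nhr-8 (IV:7710983-7714210), and with antimycin in nhr-45 it went from 0.272 to 28.4 CPM (log2 6.37, adjusted p = 1.56e-08). In nhr-178 F33D4.6 had 0.375 and 0.464 CPM. Reads of the overlapping pair cannot be told apart without strand.

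**Figure D4:**
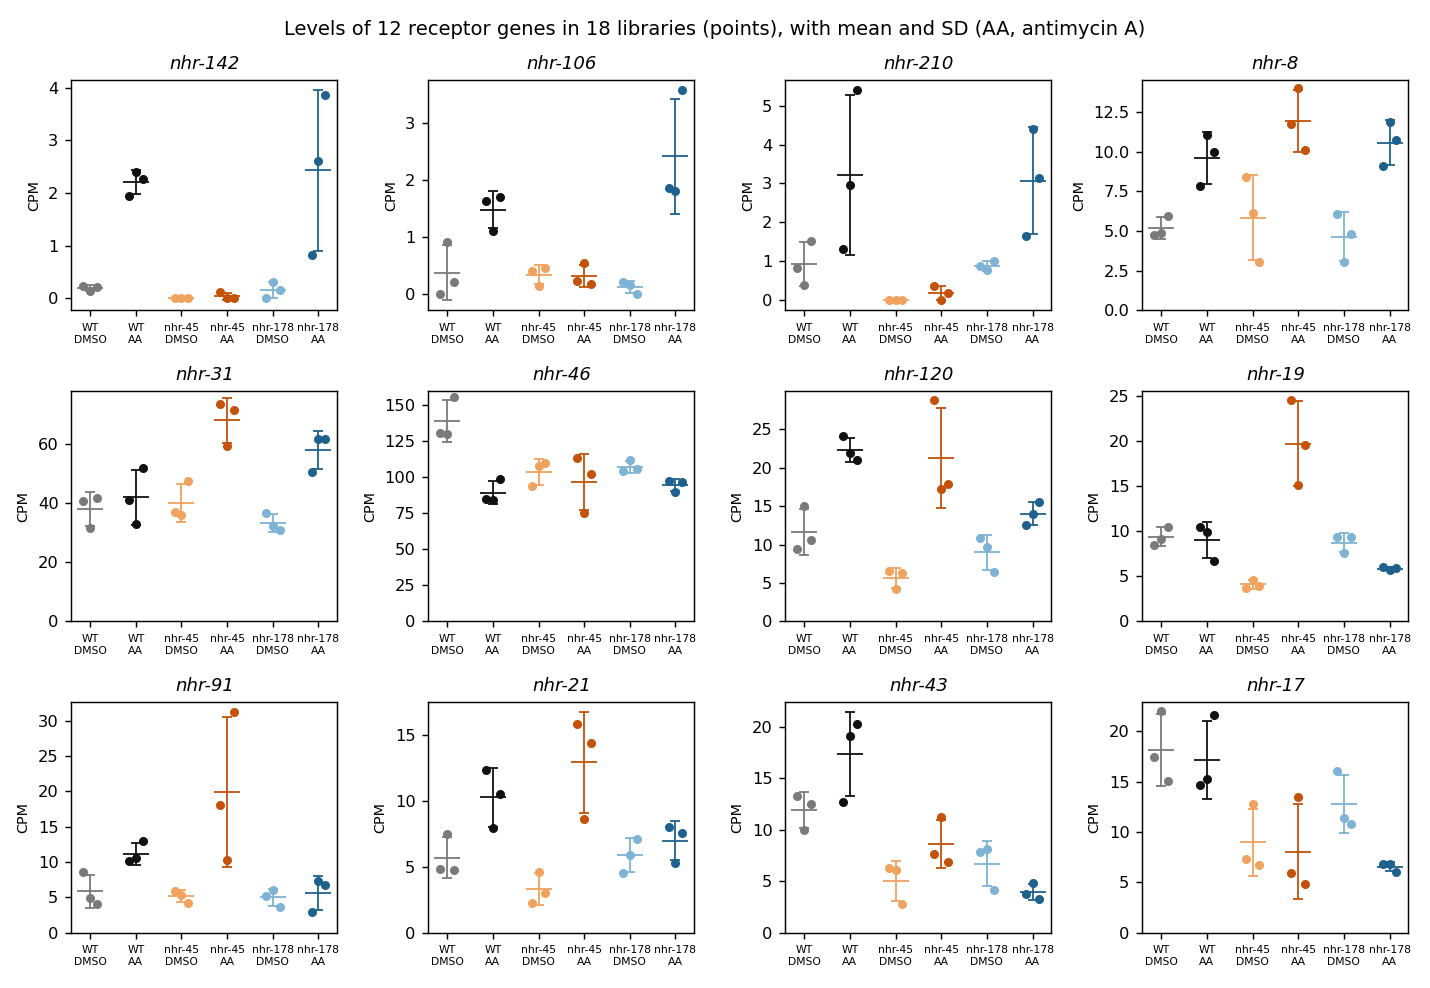
CPM of 12 receptor genes in the 6 groups, with 1 point per library and the group mean and SD. nhr-19 is lowest in nhr-45 with DMSO and highest in nhr-45 with antimycin, and nhr-142 is near 0 in both nhr-45 groups.

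In nhr-178 mutants, antimycin raised nhr-106, nhr-142, nhr-8, nhr-31 and nhr-69, and lowered none. These 5 of 99, or 5.05%, compare with 2.7% of all tested genes called, and with 2.05% called higher. The median log2 fold change was 0.122 over the receptors and 0 over all tested genes. Libraries did not overlap in 18 receptors that were higher and 6 that were lower, against 10% and 8.19% of all tested genes. nhr-106 (V:489620-491432) had 2 counts over the DMSO libraries and 50 over the antimycin ones, a 20.8-fold ratio with a counting interval of 5.47 to 177 (adjusted p = 0.00839). nhr-142 had 3 and 54 counts, a 15-fold ratio with an interval of 4.86 to 74.9 (adjusted p = 0.00839). In both, each antimycin library lay above each DMSO library: nhr-106 had 1.86, 1.81 and 3.58 CPM with antimycin and at most 0.217 with DMSO. Both passed the low-count filter through antimycin groups in which they were high, so these calls are descriptions. nhr-31 rose from 36.7, 32.3 and 30.8 to 50.4, 61.5 and 61.6 CPM (log2 0.80 ± 0.18, adjusted p = 0.00841). nhr-69 (I:9879183-9881504), which acts with DAF-8 in control of insulin secretion, rose from 32.1, 37.3 and 35.9 to 43.8, 54.4 and 63.6 CPM (log2 0.62 ± 0.16, adjusted p = 0.026). nhr-69 and nhr-106 were not called in WT, but their WT groups did not overlap either. There nhr-69 had 45.6, 40.2 and 39.3 CPM with DMSO and 56.9, 54.5 and 60.6 with antimycin. nhr-106 had 0, 0.917 and 0.216 CPM with DMSO and 1.63, 1.11 and 1.71 with antimycin in WT. The 8 intestinal markers summed to 1940 to 2120 CPM with DMSO and 2850 to 3220 with antimycin in this mutant. The 9 moulting genes summed to 24.5 to 30.9 and then 42.5 to 54.8 CPM. Adult cuticle and neuronal sums were also higher with antimycin, without overlap. Only 1 of the 4 adult cuticle genes had a count. Oocyte and eggshell ranges met at 10700 CPM, and muscle, sperm and yolk sums overlapped. The part of these markers in the result was not tested. Without replicate 3 of nhr-178 in DMSO or in antimycin there were 0 calls. Without replicate 2 of nhr-178 in DMSO there was 1 call, and without replicate 2 of nhr-178 in antimycin 2. Without replicate 3 in DMSO the adjusted p was 0.074 for nhr-106 and 0.0565 for nhr-31, and without replicate 3 in antimycin 0.0865 for nhr-142 and 0.23 for nhr-69. For nhr-8 it was 0.188 without replicate 2 in DMSO.

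No receptor was called under antimycin in all 3 genotypes. Still, for receptors such as nhr-8, nhr-35, nhr-69 and nhr-120 every antimycin library lay above every DMSO library in each genotype. A call in some genotypes only therefore does not show that the responses differ. nhr-120 was called in WT and nhr-45, nhr-142 in WT and nhr-178, and nhr-31 and nhr-8 in both mutants. Whether an antimycin effect differed between genotypes was tested directly. The interaction with nhr-45 was called for 2 receptors, both with a higher log2 fold change in the mutant than in WT. That is 2.02%, where 4.68% of all tested genes were called and 3.39% were called in this direction. For nhr-19 the difference of log2 fold changes was 2.38 ± 0.35 (adjusted p = 8.83e-05), and this call was kept under every setting run. For nhr-1 it was 0.91 ± 0.26 (adjusted p = 0.0441). nhr-1 had 50.5, 54.9 and 76 CPM in WT with DMSO and 54.98, 42.0 and 44.8 with antimycin, against 45.9, 41.5 and 47.3 and then 76.4, 60.8 and 58.2 in nhr-45. The nhr-45 groups did not overlap, and the WT groups did. The nhr-1 call was kept with only 4 of the 12 libraries left out, with the highest adjusted p, 0.168, without replicate 3 of WT in DMSO. It was also lost in the fit on the compared groups (adjusted p = 0.0569). Leaving out single libraries gave 1 to 4 interaction calls, the 4 without replicate 2 of nhr-45 in antimycin. For nhr-178 no receptor had a called interaction by edgeR. There 9 had an unadjusted p below 0.05, DESeq2 called 0, and 0.264% of all tested genes were called.

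**Figure D5:**
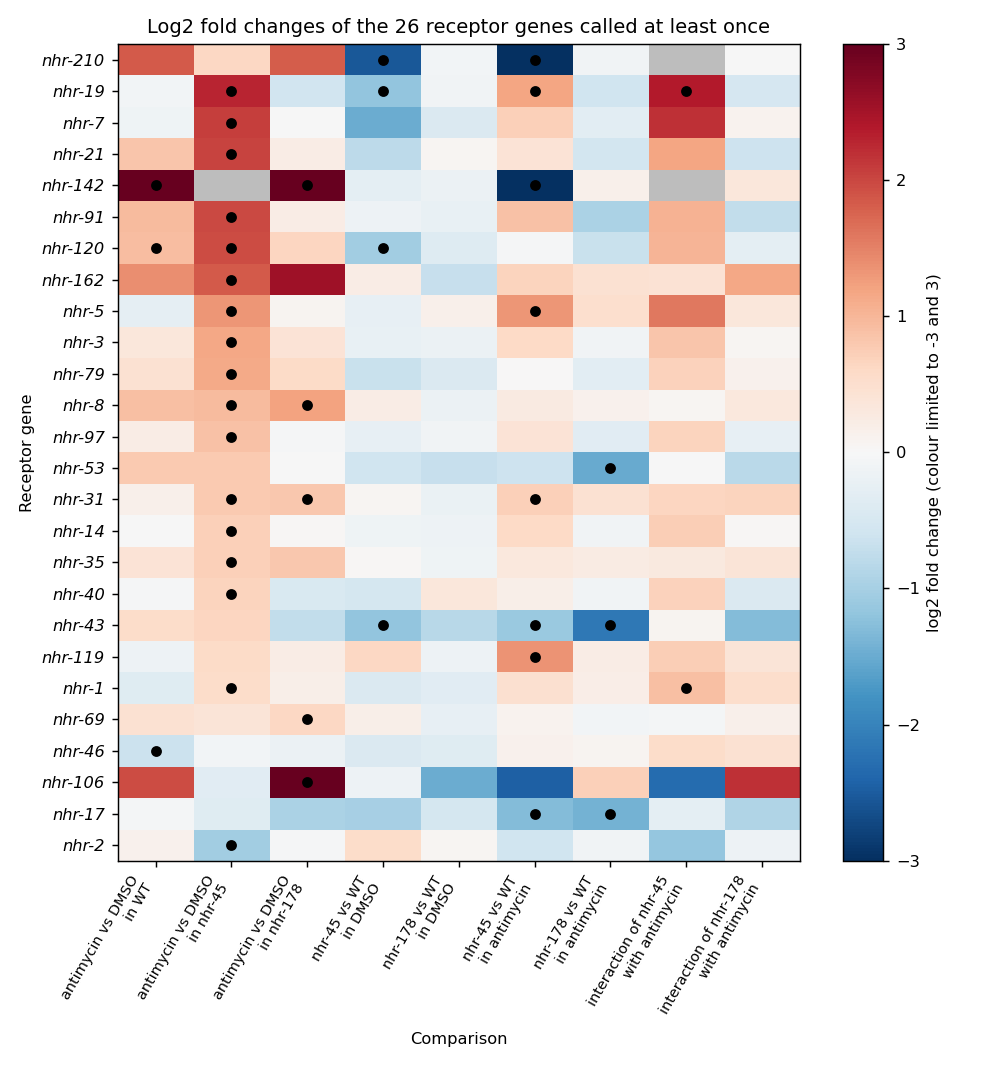
Log2 fold changes of the 26 receptor genes called at least once, with 1 column per comparison and colour limited to -3 and 3. Black dots mark the calls, grey cells have no fold because both groups were at or under the floor of 3 counts or a group of an interaction was at 0, and a pair with a group at 0 is drawn at its bound; 17 dots lie in the nhr-45 antimycin column.

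In DMSO alone, nhr-45 mutants had lower nhr-210, nhr-43, nhr-19 and nhr-120 than WT. These 4 of 99, or 4.04%, compare with 1.54% of all tested genes, and 0.82% were called lower. nhr-210 (V:517801-519545) had 24 counts over the WT libraries and none over the nhr-45 ones, where a floor of 3 counts over the group allows 0.162 CPM. Set against that floor it was at least 5.85-fold lower, and the 95% counting interval of the ratio reached down to 4.4 (adjusted p = 0.0281). nhr-43 (IV:11899590-11902976) had 13.3, 9.95 and 12.6 CPM in WT and 6.26, 6.11 and 2.79 in nhr-45 (log2 -1.19 ± 0.30, adjusted p = 0.0349). nhr-120 had 9.37, 15.1 and 10.6 CPM in WT and 6.53, 4.17 and 6.29 in nhr-45 (log2 -1.04 ± 0.27, adjusted p = 0.039). None of the libraries overlapped in these genes, nor in nhr-19 (log2 -1.19 ± 0.26, adjusted p = 0.01). Without replicate 3 of WT in DMSO there were 0 calls. Without replicate 1, 2 or 3 of nhr-45 in DMSO there were 1, 2 and 1. Without replicate 3 of WT in DMSO the adjusted p was 0.137 for nhr-210 and 0.0638 for nhr-19. It was 0.168 for nhr-43 without replicate 3 of nhr-45 in DMSO and 0.261 for nhr-120 without replicate 2 of WT in DMSO. A fit on the compared groups alone lost nhr-43, nhr-19 and nhr-120 and did not test nhr-210, so it gave 0 calls. The 11 sperm genes summed to 3.93 to 9.97 CPM in WT and 24 to 34 in nhr-45. The 4 adult cuticle genes, of which 2 had a count, summed to 150 to 179 and 195 to 224. Intestinal ranges met at 1970 CPM, and the other marker lists overlapped. The part of these markers in the result was not tested. In nhr-178 mutants with DMSO no receptor was called against WT by edgeR, and DESeq2 called 0. There 6 had an unadjusted p below 0.05, and 1.15% of all tested genes were called.

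With antimycin, nhr-45 mutants differed from treated WT in 8 receptors, 4 higher and 4 lower. That is 8.08% where 15.1% of all tested genes were called, 10.7% higher and 4.37% lower. This comparison and the next share the treated WT libraries. The lower ones included nhr-142, with 1 count over the nhr-45 libraries and 35 over the WT ones, a 36.4-fold ratio with an interval of 6.11 to 1480 (adjusted p = 0.00147). nhr-142 had 0 counts in nhr-45 with DMSO, so no antimycin fold can be given in this mutant. nhr-210 had 4 counts in nhr-45 and 58 in WT, a 15.1-fold ratio with an interval of 5.58 to 57.2 (adjusted p = 0.00148). It stood at 1.30, 2.95 and 5.40 CPM in treated WT, and at 0.355, 0 and 0.172 in treated nhr-45. In nhr-178 with antimycin, nhr-142 had 54 counts and nhr-210 had 69. nhr-17 (X:12663837-12667854) had 14.6, 15.3 and 21.6 CPM in WT and 5.92, 13.4 and 4.8 in nhr-45 (log2 -1.30 ± 0.32, adjusted p = 0.00431). nhr-43 had 12.7, 19.2 and 20.3 CPM in WT and 7.69, 11.3 and 6.86 in nhr-45 (log2 -1.11 ± 0.30, adjusted p = 0.0107). All of these groups were separate, though replicate 2 of nhr-45 lay nearest WT in both nhr-17 and nhr-43.

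The receptors higher in treated nhr-45 than in treated WT were nhr-19, nhr-119, nhr-5 and nhr-31. nhr-19 had a log2 fold change of 1.19 ± 0.24 (adjusted p = 0.000774). nhr-119 (II:2794016-2800600) had 4.23, 3.13 and 3.98 CPM in WT and 7.33, 7.53 and 13.4 in nhr-45 (log2 1.35 ± 0.35, adjusted p = 0.00764). Unlike nhr-19, it stood at 6.44 ± 2.12 CPM in nhr-45 with DMSO (SD, n = 3), so its libraries there overlapped both treated groups. nhr-5 and nhr-31 differed by 1.32 ± 0.42 and 0.70 ± 0.18 on the log2 scale (edgeR adjusted p = 0.0315 and 0.00732). Without replicate 3 of nhr-45 in antimycin 4 receptors were called. The calls on nhr-17, nhr-43 and nhr-119 had adjusted p of 0.0527, 0.0698 and 0.107 without it. The call on nhr-43 was kept with only 3 of the 6 libraries left out. nhr-31 had an adjusted p of 0.081 without replicate 2 of WT in antimycin. The call on nhr-5 was kept with 0 of the 6 libraries left out (adjusted p of 0.0523 to 0.13), and was also lost without a filter (0.075) and without both shallow libraries (0.129). The call on nhr-19 was kept in every setting run. Those on nhr-142 and nhr-210 were kept with each library left out, but neither gene was tested with a filter at 5 CPM, nor nhr-210 in the fit on the compared groups. Both genes passed the low-count filter mainly through groups in which they were high, so keeping these calls adds no separate support.

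With antimycin, nhr-178 mutants had lower nhr-43, nhr-53 and nhr-17 than WT, or 3.03% of receptors where 3.63% of all tested genes were called and 2.51% were lower. nhr-43 had 12.7, 19.2 and 20.3 CPM in WT and 3.72, 4.86 and 3.29 in nhr-178 (log2 -2.14 ± 0.31, adjusted p = 5.03e-05). This was the largest of the 3 differences, and the call was kept in every setting run. In DMSO nhr-43 had 7.82, 8.18 and 4.16 CPM in nhr-178 and its difference from WT did not pass the test (log2 -0.83 ± 0.29, adjusted p = 0.248). Its interaction with nhr-178 was -1.30 ± 0.43 and did not pass either (adjusted p = 0.319). nhr-17 had 14.6, 15.3 and 21.6 CPM in WT and 6.82, 6.78 and 6.01 in nhr-178 (log2 -1.41 ± 0.30, adjusted p = 0.00491). nhr-53 (V:15700606-15702363) had 9.76, 8.85 and 7.25 CPM in WT and 1.65, 3.62 and 3.43 in nhr-178 (log2 -1.50 ± 0.38, adjusted p = 0.0216). Both were lower in every mutant library. Between the same groups the 5 muscle genes summed to 7080 to 8500 CPM in WT and 3490 to 3780 in nhr-178, with unc-54 and lev-11 called lower. The 4 adult cuticle genes summed to 205 to 219 and 125 to 132 CPM, with col-19 called lower and 1 of the 4 having a count in nhr-178. The other marker lists did not overlap either. Intestinal genes summed to 2070 to 2520 CPM in WT and 2850 to 3220 in nhr-178. Yolk genes had 4700 to 5070 and 5160 to 6160, and oocyte and eggshell genes 8100 to 8770 and 9540 to 10700. Moulting genes had 56.4 to 96.3 and 42.5 to 54.8, and neuronal genes 522 to 549 and 479 to 513. Sperm genes had 12.4 to 17.5 and 0.858 to 9.5. The part of these markers in the result was not tested. The call on nhr-53 was kept with only 2 of the 6 libraries left out, and its adjusted p was 0.106 without replicate 1 of nhr-178 in antimycin. The call on nhr-17 was lost only without replicate 3 of WT in antimycin (adjusted p = 0.0526).

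By role, 7 receptors known from fat storage, desaturation or diet responses were listed together. None of nhr-13, nhr-49, nhr-62, nhr-66, nhr-76, nhr-80 and nhr-114 was called in any of the 9 comparisons, although all 7 were tested. In the comparison with the most calls, antimycin in nhr-45, 23.5% of all tested genes were called. nhr-8, with its role in cholesterol handling, was not on this list and was called in both mutants. Their median log2 fold change under antimycin was 0.0356 in WT, -0.151 in nhr-45 and -0.0161 in nhr-178. nhr-66, which works with NHR-49 in lipid metabolism, had 64.4 ± 11.8 CPM in nhr-45 with DMSO and 48.5 ± 16 with antimycin. nhr-13 had 3.74 ± 0.688 and 1.80 ± 0.534 CPM in the same groups, with a log2 fold change of -1.15 ± 0.47 (SD, n = 3 for levels; edgeR adjusted p = 0.0763).

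Of 10 receptors with named relatives in other animals, 8 were tested. In nhr-45 with antimycin nhr-8 and nhr-91 were called higher, and in nhr-178 nhr-8 and nhr-69. Of all tested genes, 15.2% and 2.05% were called higher in these comparisons. The list's median log2 fold change was 0.0555 in WT, 0.794 in nhr-45 and 0.0541 in nhr-178. Over all tested receptors the medians were 0.136, 0.52 and 0.122. nhr-6, the NR4A receptor of the spermatheca, had 0.908 ± 0.388 CPM in nhr-45 with DMSO and 2.53 ± 2.13 with antimycin, and nhr-41, a relative of TR2 and TR4, had 2.13 ± 1.01 and 4.27 ± 1.40. Neither passed the test (adjusted p = 0.0601 and 0.0747). nhr-67, the tailless relative of the anchor cell, had 44 counts in all and was not tested, and nhr-111 had none. Among the 7 receptors tied to toxins and pathogens, 6 were tested. nhr-8 and nhr-14 were called higher with antimycin in nhr-45, and nhr-8 in nhr-178, where the shares of all tested genes were again 15.2% and 2.05%. nhr-86, which senses a bacterial metabolite, stayed between 38.0 and 50.2 CPM by group. nhr-176, which acts in thiabendazole metabolism, had a mean of 3.33 ± 3.64 CPM in nhr-45 with antimycin, and other group means were at most 1.30. Its libraries there had 1.42, 7.53 and 1.03 CPM. The high one, replicate 2, is the shallowest of the series and had 14 counts. A WT library with antimycin reached 1.84 CPM, and nhr-176 was not called (adjusted p = 0.0624).

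The genes around the receptors in the pathway were described from lists chosen with earlier results known. Mediator subunits and coregulators, which link receptors to RNA polymerase, had 15 tested of 16. mdt-29 was the single one called in any comparison, lower in nhr-45 with antimycin (log2 -0.49 ± 0.17, adjusted p = 0.0313). In that comparison 8.33% of all tested genes were called lower. mdt-15, the Mediator subunit that NHR-49 binds, had 191 ± 9.16 to 232 ± 17.5 CPM by group (SD, n = 3). Of 6 genes of steroid ligand synthesis, 4 were tested. emb-8, the P450 reductase, rose with antimycin in WT from 399 ± 13.9 to 680 ± 80.8 CPM (log2 0.77 ± 0.12, adjusted p = 0.000157). In nhr-178 it rose from 378 ± 17.1 to 684 ± 36.7 CPM. In nhr-45 it had 326 ± 45.4 and 362 ± 30.1 CPM, and its interaction with nhr-45 was -0.62 ± 0.17 (adjusted p = 0.0359). Of 5 other named receptors, daf-12 and sex-1 were tested and neither was called.

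Among known targets of these receptors, 8 of 9 were tested. With antimycin 5 were called higher in nhr-45, where 15.2% of all tested genes were, and none in WT, where 2.07% were. acs-2, a mitochondrial acyl-CoA synthetase gene activated by NHR-49, had 6.36 ± 2.70 and then 55 ± 6.35 CPM in nhr-45 (log2 3.15 ± 0.25, adjusted p = 2.09e-10). In WT it had 12.2 ± 1.85 and 14.9 ± 3.45 CPM, and the interaction was 2.89 ± 0.34 (adjusted p = 2.72e-06). icl-1, the glyoxylate cycle enzyme, and irg-4, a pathogen-response gene, were also called in that interaction, at 1.17 ± 0.28 and 2.33 ± 0.45. Of all tested genes, 3.39% were called higher there. With DMSO, acs-2 was already called lower in nhr-45 than in WT (log2 -0.98 ± 0.25, edgeR adjusted p = 0.0416), as were 0.82% of all tested genes. In nhr-178 with antimycin acs-2 and icl-1 were called lower, at -0.87 ± 0.23 and -0.84 ± 0.20. In that comparison 2.7% of all tested genes were called in either direction. The level of nhr-49 itself did not pass the test in any of these comparisons. The stearoyl-CoA desaturase gene fat-6 rose in nhr-45 from 268 ± 50.03 to 408 ± 51.5 CPM (adjusted p = 0.00712). The monooxygenase gene fmo-2 had 0.0776 ± 0.134 CPM in nhr-45 with DMSO, under the floor of 0.162 CPM, and 4.14 ± 0.331 with antimycin. For fat-6 and fmo-2 the interaction with nhr-45 did not pass the test (edgeR adjusted p = 0.211 and 0.221). Between nhr-45 and WT in antimycin, fmo-2 was called higher in nhr-45 (log2 3.19 ± 0.77, edgeR adjusted p = 0.00423) and fat-6 was not called (0.174).

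Over all comparisons 26 receptor genes were called at least once, in 42 calls. Of these, 13 were kept with each library left out and under each alternative in which the gene was tested, and no call reversed its sign. The 13 include nhr-7, nhr-142 and nhr-210, which were not tested with the filter at 5 CPM, and nhr-210 was not tested in the fit on the compared groups either. nhr-142 and nhr-210 passed the low-count filter mainly through groups in which they were high, so their place among the 13 is a description.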

How the data were processed

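RNA was sequenced from 18 libraries of 6 groups of 3. The authors deposited 1 table of gene counts, which are whole numbers with unequal library totals, and all 18 columns were matched to samples by title. The submitters' processing notes list R 3.6.3, DESeq2, RSEM and Bowtie2 without roles. For the genome build, annotation, strand use and reads that match several genes, the sources used here give nothing. Symbols and positions come from the WBcel235 annotation, joined by identifier, and may differ from the authors' build. Coding length is the longest coding sequence in that annotation, in place of the RefSeq protein length first planned.

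Counts were fitted with edgeR 4.0.16 in R 4.3.3, by quasi-likelihood. The fit used TMM scaling, the filterByExpr filter and a mean for each group over the 18 libraries, which left 12 residual degrees of freedom. The biological coefficient of variation was 17.1%. P-values were adjusted by Benjamini-Hochberg over 10981 genes within each of 9 comparisons. CPM were scaled with TMM. Counts of 3 over a group were the floor, and 95% counting intervals and floors cover counting error only. Alternatives were DESeq2 1.42.0, other scaling and filters, a fit on the compared groups, a replicate block, and each library left out. The scripts were tested on simulated data. The genes named were nhr-45 and nhr-178, up to 10 called members in each direction by fold in each comparison, the 15 highest per kilobase, the listed receptors and the untested genes with the most counts; nhr-35 fell outside this rule and was named after its values were seen. The members and lists were chosen with earlier results of these data known.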

Additional observations from a re-analysis of the deposited data

Results flagged for a closer look

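The antimycin effect on 2 receptor genes differed between nhr-45 and WT animals by the interaction test itself. For nhr-19 the log2 fold change was higher in nhr-45 by 2.38, from -0.08 in WT to 2.29 in the mutant (edgeR adjusted p = 8.83e-05). For nhr-1 it was higher by 0.91, from -0.36 in WT to 0.55 in the mutant (edgeR adjusted p = 0.0441). The call on nhr-1 was kept with only 4 of the 12 libraries left out, and that on nhr-19 with all 12.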

How the results depend on the processing

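Of 42 calls on receptor genes, 13 were kept in every setting in which the gene was tested, and none reversed. Fits on the compared groups alone gave 0 calls for nhr-45 against WT in DMSO (4 in all-group fits, of which nhr-210 was not tested), 13 for antimycin in nhr-45 (17) and 1 for the nhr-45 interaction (2). A stricter filter, a mean of 5 CPM, gave 3 calls for antimycin in nhr-178 (5) because low genes were not tested. Leaving out single libraries gave 0 to 3 calls for antimycin in WT, 10 to 16 in nhr-45 and 0 to 5 in nhr-178, where 3, 17 and 5 were called with all libraries. Against WT it gave 0 to 3 for nhr-45 in DMSO, 4 to 8 for nhr-45 in antimycin and 2 to 3 for nhr-178 in antimycin, and 1 to 4 for the nhr-45 interaction. Same-numbered replicates were not paired, since the correlations of their deviations ran from -0.0858 to 0.0782. A fit with the replicate number as a block gave 3, 17 and 5 calls for antimycin in WT, nhr-45 and nhr-178, 4 and 0 for the mutants against WT in DMSO, 9 and 4 in antimycin, and 2 and 0 for the interactions, and it lost none of the 42 calls. DESeq2 and other size factors lost none either. At this depth, 143 of 242 receptor genes could not be tested, and differences among them were not detectable.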
